A study of Mus musculus with 6 samples.

Results

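The interferon response and nucleic acid sensing genes were a set of 39 genes of the 24736 in the expression table, compared here between mouse embryonic stem cells (ESCs) and epiblast-like cells (EpiLCs). The 39 were chosen by name from the textbook pathway, and they were chosen with earlier results of this same ESC to EpiLC comparison in view, so that their changes between the groups are given as a description. They comprised 5 cytosolic or endosomal nucleic acid sensors and the adaptor Mavs, 4 receptor chains, 9 transcription factors, 14 antiviral effectors or regulators and 6 interferon-inducible GTPases. Of these, 35 passed the filter on low counts and were tested, and Irf7, Ifit1, Ifit3 and Oasl1 did not.

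Both groups came from the wild-type (WT) HM1 TetON line, an XY mouse ESC line that carries the reverse tetracycline transactivator at Rosa26 and was used without an added Sox2 transgene. The 3 ESC libraries (time point 0 h) were made from undifferentiated cells in knockout DMEM with 10% serum and 1000 U/ml of the cytokine LIF. The 3 EpiLC libraries (48 h) were made from the same line after serum and LIF had been replaced by N2B27 basal medium with 10 ng/ml bFGF and 5 uM LGK974, which blocks the secretion of WNT ligands. The time is that of the labels, and a passage of the study's culture methods gives a longer one. ESCs were propagated on a layer of inactivated mouse embryonic fibroblasts, the feeders, which were separated by letting them adhere to plastic before differentiation began. Whether feeders were removed before RNA was taken from the ESC samples is not given in the sources used here. Medium, serum, LIF, bFGF, LGK974, the feeder layer and time in culture changed together, and their parts in any difference cannot be told apart. The sampling design holds no infected, interferon-treated or nucleic acid-transfected cells, so all values are levels without added stimulus.

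Cells detect viral RNA through the helicases RIG-I (Ddx58) and MDA5 (Ifih1), which signal through Mavs, and through the endosomal receptor Tlr3; the sensor Zbp1 binds left-handed nucleic acid and can start necroptosis. The RIG-like helicases and Tlr3 activate factors of the IRF family, which switch on interferon genes. Secreted type I interferon binds Ifnar1 and Ifnar2, and type II interferon binds Ifngr1 and Ifngr2. The receptors activate STAT proteins, which with Irf9 drive the interferon-stimulated genes through an element called the ISRE or, for type II interferon, through the GAS element. Pluripotent cells are known for a muted interferon system: they make little interferon and respond weakly to it, while keeping part of the antiviral effectors on.

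Stretches of promoter with matches to the ISRE are shown first, because 5 of the 6 fallen GTPases and several effectors carry them close to their start sites, and because 2 genes that rose carry them too. A promoter window was taken as 250 bases before to 50 bases after the transcription start in RefSeq (GRCm38.p6, the mm10 build), and 34 of the 39 genes had one. The ISRE core was searched as GAAA, any 2 bases and GAAA again, and the GAS core as TTC, any 3 bases and GAA, on both strands, with overlapping matches allowed. In the 60-base windows printed below, each read 5′ to 3′ on the strand of its gene, capitals mark ISRE cores, which appear as their reverse complement where they lie on the other strand.

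The ubiquitin-like effector Isg15 (minus strand, chr4:156200856-156200915) and the oligoadenylate synthetase Oas1a (minus strand, chr5:120907526-120907585), both lower in EpiLCs, held 3 and 2 overlapping cores:
Isg15: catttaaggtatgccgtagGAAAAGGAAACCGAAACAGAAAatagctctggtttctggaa
Oas1a: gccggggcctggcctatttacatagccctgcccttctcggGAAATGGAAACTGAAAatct

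The GTPases Gbp2 (plus strand, chr3:142620579-142620638), Irgm1 (minus strand, chr11:48871421-48871480), Igtp (plus strand, chr11:58199496-58199555) and Irgm2 (plus strand, chr11:58214888-58214947), all lower in EpiLCs, held 1 core each, except Irgm1 with 2:
Gbp2: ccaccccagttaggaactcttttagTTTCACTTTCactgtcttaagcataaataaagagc
Irgm1: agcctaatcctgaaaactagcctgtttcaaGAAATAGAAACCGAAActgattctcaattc
Igtp: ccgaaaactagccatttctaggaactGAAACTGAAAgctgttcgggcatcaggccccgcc
Irgm2: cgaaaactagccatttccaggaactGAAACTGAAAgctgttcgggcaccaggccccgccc

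The near-silent effector Ifit1 (plus strand, chr19:34640769-34640828) held 2 separate cores, and Bst2 (minus strand, chr8:71537565-71537624) and Rsad2 (minus strand, chr12:26456538-26456597), which were both higher in EpiLCs, held 2 and 1:
Ifit1: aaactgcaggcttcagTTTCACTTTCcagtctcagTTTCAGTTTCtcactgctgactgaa
Bst2: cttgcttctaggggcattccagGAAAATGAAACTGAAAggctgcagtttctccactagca
Rsad2: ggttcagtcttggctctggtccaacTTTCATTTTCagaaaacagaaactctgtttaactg

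The printed Igtp and Irgm2 stretches, aligned on the core without gaps, were identical at 57 of 59 bases, against 134 of 220 (60.9%) over all the bases before the start that this alignment covers, and the pair lie next to each other on chromosome 11. Read in their 6 libraries, these 9 promoters belonged to genes that moved in both directions, with the values given below.

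Each group held 3 libraries labelled as biological replicates, with 16967741 to 28521848 expected counts per ESC library and 30683164 to 35096210 per EpiLC library. A floor of 3 counts stood at 0.105 to 0.177 CPM (counts scaled to the library total) in ESCs and 0.0855 to 0.0978 in EpiLCs, for counting error only. The markers went with the labels: all 8 naive markers were lower and all 7 EpiLC markers higher in EpiLCs. The summed TPM (a transcript level scaled for length and library size) of 18 fibroblast markers differed among the ESC libraries, at 424, 1920 and 156 in replicates 1, 2 and 3, against 102 to 116 in the EpiLC libraries. These are bulk samples, in which fewer cells of a type and less RNA per cell cannot be told apart. Of the 11 macrophage and leukocyte markers, Adgre1 and Tyrobp were listed at 0 in all 6 libraries and Ptprc did not exceed 0.12 TPM, and the list summed to 13.2 to 17.8 TPM in ESCs and 6.74 to 9.58 TPM in EpiLCs, mostly from Cd68.

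Taken over all roles, 22 of the 35 tested genes were lower and 4 were higher in EpiLCs (edgeR quasi-likelihood test, Benjamini-Hochberg adjustment over all 14468 genes tested, threshold 0.05), against 22.8% of all tested genes lower and 22.6% higher. With a log2 change beyond 1 as well, 17 were lower and 3 higher, against 11.5% and 8.78% of all tested genes. The median log2 fold change of the 35 genes was -0.94, and that of all tested genes was -0.0017. The former was -1.71 without ESC replicate 3 and -1.45, -1.44 and -1.44 without EpiLC replicates 1, 2 and 3, fits in which 37 genes were tested. The ESC and EpiLC ranges of TPM did not overlap in the 22 and 4 called genes, as in 96.6% and 99.8% of all genes called lower and higher, so that the count says nothing particular about the set. Since the 39 genes were listed with this comparison known, nothing is read from these shares. Without ESC replicate 2, the library with the most fibroblast marker RNA, 22 genes were lower and 5 higher. Over all genes, that fit called 3609 lower and 3572 higher. The part of feeder RNA in these calls was not tested.

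**Figure D1:**
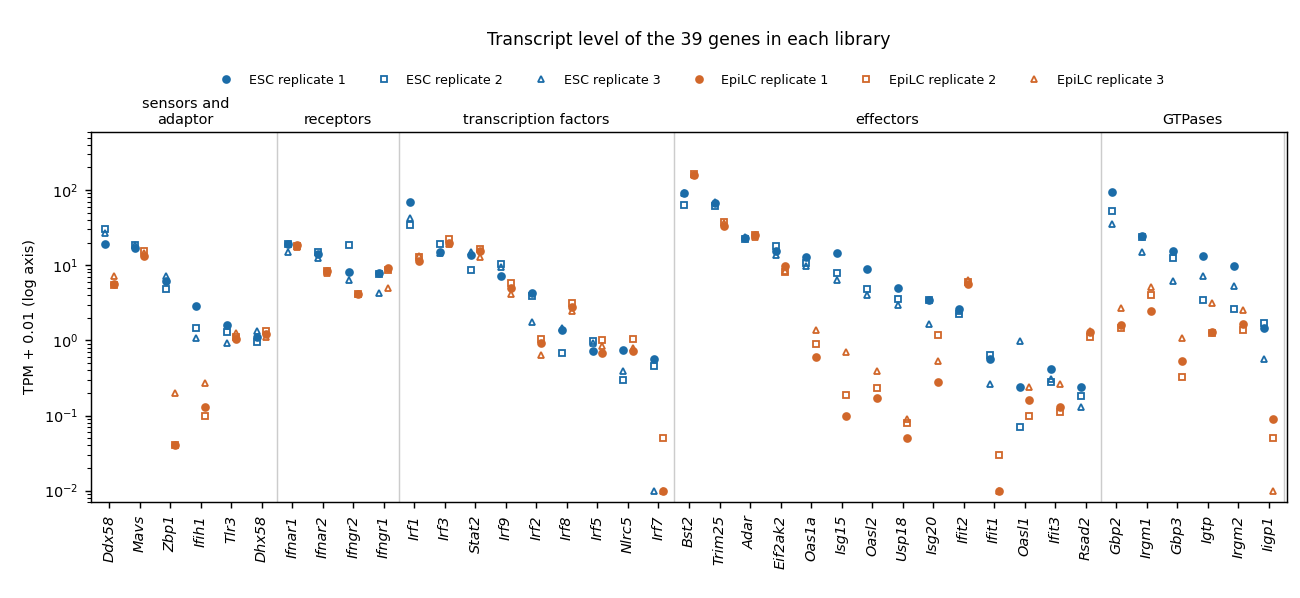
Transcript level of the 39 genes (horizontal axis, by role and by falling ESC mean) in TPM + 0.01 on a log axis, with 1 point per library: blue for ESCs, orange for EpiLCs, and the marker shape for the replicate. Levels range from listed 0 (Irf7, Ifit1 and Iigp1 in some libraries) to 166 TPM (Bst2 in EpiLC replicate 2), and for each of the 6 GTPases every ESC point lies above every EpiLC point of that gene.

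Among the sensors and their adaptor, 4 of 6 genes fell and none rose. Zbp1 had 6.1, 4.75 and 7.08 TPM in ESC replicates 1, 2 and 3, and 0.03, 0.03 and 0.19 TPM in EpiLC replicates 1, 2 and 3. All ESC libraries thus lay far above all EpiLC libraries. Its log2 fold change (EpiLC minus ESC throughout) was -6.30 ± 0.42 (SE, 3 libraries against 3), the largest fall of the set. In counts these were 236 reads in ESCs and 4 in EpiLCs, a depth-scaled ratio of 87.1 with a 95% counting interval (exact, conditional binomial) of 33.6 to 322.2. The MDA5 gene Ifih1 stood at 2.86, 1.47 and 1.06 TPM in ESCs and at 0.12, 0.09 and 0.26 TPM in EpiLCs, a log2 change of -3.59 ± 0.53. For the RIG-I gene Ddx58 the values were 18.9, 30.6 and 26.8 TPM in ESCs and 5.65, 5.48 and 7.16 TPM in EpiLCs, a log2 change of -2.11 ± 0.21. Of the 5 genes in the sensor role, Ddx58 had the highest TPM in both groups.

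The adaptor fell by little, and the remaining sensors did not pass. Mavs, the mitochondrial protein on which RIG-I and MDA5 converge, had 16.9, 18.3 and 18.5 TPM in ESCs and 13.4, 15.6 and 14.5 TPM in EpiLCs, and its log2 change of -0.35 ± 0.10 passed the test with a small size but did not without EpiLC replicate 1 (-0.30) or 3 (-0.34). Dhx58, which encodes the helicase LGP2 that modulates both RIG-like sensors, had 0.95 to 1.33 TPM in ESCs and 1.1 to 1.32 TPM in EpiLCs. Tlr3 had 0.92 to 1.6 TPM in ESCs and 1.04 to 1.25 TPM in EpiLCs. For these 2 genes the groups overlapped, and the log2 changes of 0.05 ± 0.24 and -0.23 ± 0.25 did not pass. The 5 sensors were thus split between 3 that fell by at least 2.11 on the log2 scale and 2 that did not pass.

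In each receptor pair 1 chain passed and the other did not, and the difference between the chains was not tested. Ifnar1 had 18.9, 19.0 and 14.9 TPM in ESCs and 18.7, 17.8 and 17.5 TPM in EpiLCs, with a log2 change of -0.02 ± 0.10 that did not pass and whose sign depended on the scaling (0.01 with upper-quartile scaling). Its partner Ifnar2 had 13.9, 14.9 and 12.4 TPM in ESCs and 8.33, 8.32 and 7.85 TPM in EpiLCs, and fell by 0.73 ± 0.15 on the log2 scale. The type I receptor was thus represented by both chains in every library, with Ifnar2 the lower of the pair in each.
Of the type II receptor, Ifngr1 had 7.88, 7.7 and 4.31 TPM in ESCs and 9.2, 8.73 and 4.93 TPM in EpiLCs, a log2 change of 0.16 ± 0.32 that did not pass. Ifngr2 had 8.03, 18.7 and 6.4 TPM in ESCs and 4.17, 4.19 and 4.11 TPM in EpiLCs, a log2 change of -1.45 ± 0.40. The high Ifngr2 value lay in ESC replicate 2, together with the fibroblast marker RNA, and without that library the log2 change was -0.85 and still passed. It did not pass without any 1 of the EpiLC replicates, at -1.45 to -1.44. The part of feeder RNA in these values was not tested.

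Among the 8 transcription factors tested, 3 were lower, 1 was higher and 4 did not pass. Irf1, an activator induced by interferon, had 69.3, 33.8 and 42.1 TPM in ESCs and 11.5, 12.9 and 13.2 TPM in EpiLCs, a log2 change of -2.0 ± 0.26. Irf2, which can oppose Irf1 at the same element, had 4.31, 3.89 and 1.72 TPM in ESCs and 0.91, 1.03 and 0.62 TPM in EpiLCs, a log2 change of -1.99 ± 0.40. This pair thus fell by a like amount, from levels that differed by an order of magnitude. Irf9, the DNA-binding part of the complex that type I interferon activates, had 7.2, 10.4 and 9.39 TPM in ESCs and 4.93, 5.75 and 4.12 TPM in EpiLCs, a log2 change of -0.88 ± 0.19. Its partner Stat2 had 13.6, 8.6 and 14.8 TPM in ESCs and 15.6, 16.2 and 12.8 TPM in EpiLCs, a log2 change of 0.21 ± 0.21 that did not pass.

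Irf8, a factor known mainly from blood cells, was the riser of this role. It had 1.36, 0.67 and 1.44 TPM in ESCs and 2.73, 3.15 and 2.47 TPM in EpiLCs, a log2 change of 1.19 ± 0.31, and its call was lost without EpiLC replicate 1 (1.21) or 2 (1.11). Of the 11 macrophage and leukocyte markers, 3 were tested, of which 1 was lower, 1 higher and 1 not called. Ptprc, Adgre1 and Tyrobp were at or near 0 in all 6 libraries, and most of the summed level of the list came from Cd68. Itgam, the 1 marker of that list that rose, had 0.11 to 0.16 TPM in ESCs and 0.41 to 0.88 TPM in EpiLCs. Irf3, a factor activated downstream of the sensors through adaptors and kinases, had 15.1, 19.0 and 14.6 TPM in ESCs and 20.0, 22.5 and 18.9 TPM in EpiLCs, and its log2 change of 0.28 ± 0.13 did not pass with all libraries but did without ESC replicate 2 (0.40). The groups overlapped for Irf3, with ESC replicate 2 above EpiLC replicate 3.
Irf5 had 0.72 to 0.98 TPM in ESCs and 0.66 to 1 TPM in EpiLCs, a log2 change of -0.15 ± 0.30. Nlrc5, the activator of MHC class I genes, had 0.29 to 0.74 TPM in ESCs and 0.71 to 1.02 TPM in EpiLCs, and its log2 change of 0.77 ± 0.37 passed, of all alternatives run, only without ESC replicate 1 (1.23). Irf7, the factor that amplifies interferon production, lay below the filter: 10, 6 and 0 reads in ESCs and 0, 1 and 0 reads in EpiLCs, a depth-scaled ratio of 23.6 with a 95% counting interval of 3.67 to 990.1. That interval covers counting error only, and ESC replicate 3 held no read. Of the 6 alternative fits that included Irf7, it was called lower in 1, without ESC replicate 3, and not with DESeq2 or with no filter.

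Of the 11 antiviral effectors tested, 7 fell and 3 rose, which were 3 of the 4 rises of the whole set. The deconjugating enzyme Usp18, which removes Isg15 from proteins and dampens the type I receptor, had 5, 3.56 and 2.91 TPM in ESCs and 0.04, 0.07 and 0.08 TPM in EpiLCs. That was 207 reads against 5, a depth-scaled ratio of 61.1 (95% counting interval 25.8 to 190.1), and a fitted log2 change of -5.87 ± 0.41. Isg15 itself had 14.4, 7.78 and 6.28 TPM in ESCs and 0.09, 0.18 and 0.7 TPM in EpiLCs, a log2 change of -4.91 ± 0.65, and of -6.05 without EpiLC replicate 3. In both genes ESC replicate 1 was highest and replicate 3 lowest. That order was not particular to the pair, as Tlr3, which did not pass, and Rsad2, which rose, had it too.

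Of the oligoadenylate synthetase family, named for enzymes that make the activator of RNase L, both genes of the set that passed the filter fell. Oas1a had 12.9, 10.8 and 9.82 TPM in ESCs and 0.59, 0.89 and 1.35 TPM in EpiLCs, a log2 change of -3.62 ± 0.32. Oasl2 had 8.9, 4.8 and 4.03 TPM in ESCs and 0.16, 0.22 and 0.38 TPM in EpiLCs, a log2 change of -4.60 ± 0.46. Oasl1, which lies beside Oasl2 on chromosome 5, lay below the filter: 5, 1 and 27 reads in ESCs and 5, 3 and 7 in EpiLCs, a depth-scaled ratio of 3.25 with a 95% counting interval of 1.71 to 6.43. Most Oasl1 reads of the ESC group thus came from replicate 3, the groups overlapped, and Oasl1 was called in neither of the 2 alternative fits that included it. The reads of Oas1a were partly shared with near-identical copies by the authors' counting, which makes its split from them uncertain. The exonuclease Isg20 had 3.44, 3.43 and 1.64 TPM in ESCs and 0.27, 1.17 and 0.52 TPM in EpiLCs, a log2 change of -2.15 ± 0.53 whose call was lost without EpiLC replicate 1 (-1.81) or 3 (-2.07).

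Eif2ak2 and Trim25 fell by less, and Adar did not pass. The RNA-activated kinase gene Eif2ak2 (PKR) had 15.6, 18 and 13.8 TPM in ESCs and 9.62, 8.1 and 8.28 TPM in EpiLCs, a log2 change of -0.92 ± 0.13. Trim25, the ubiquitin ligase that assists RIG-I, had 67.2, 61.2 and 70.0 TPM in ESCs and 33.7, 37.3 and 36.3 TPM in EpiLCs, a log2 change of -0.94 ± 0.08. Adar, the RNA editing enzyme that keeps self RNA from being sensed, had 23.3, 22 and 23.6 TPM in ESCs and 25.4, 25.3 and 23.6 TPM in EpiLCs, a log2 change of 0.06 ± 0.07 that did not pass. Adar had the smallest SE of the 35 genes, and its groups overlapped.

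Rsad2, Ifit2 and Bst2 rose. Rsad2 (viperin, an enzyme that makes a chain-terminating nucleotide) had 0.23, 0.17 and 0.12 TPM in ESCs and 1.3, 1.1 and 1.33 TPM in EpiLCs, a log2 change of 2.82 ± 0.31. Ifit2, whose protein binds viral RNA, had 2.6, 2.26 and 2.44 TPM in ESCs and 5.59, 5.89 and 6.27 TPM in EpiLCs, a log2 change of 1.23 ± 0.14. Bst2 (tetherin, which holds budding virions at the cell surface) had 92.7, 64 and 91 TPM in ESCs and 157, 166 and 156 TPM in EpiLCs, a log2 change of 0.89 ± 0.15. Bst2 was the most abundant gene of the set in EpiLCs, and in all 3 cases the groups did not overlap. Rsad2 rose from near the counting floor, 5 to 9 reads per ESC library, to 66 to 81 per EpiLC library.

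Of the 3 Ifit genes of the set, which lie on chromosome 19, Ifit2 alone passed the filter. Ifit1 had 15, 13 and 9 reads in ESCs and 0, 1 and 0 reads in EpiLCs, a depth-scaled ratio of 54.6 with a 95% counting interval of 9.21 to 2214. Ifit3 had 20 rounded reads in ESCs and 14 in EpiLCs, a depth-scaled ratio of 2.11 with an interval of 1.01 to 4.51, and part of its reads were shared with a near-identical copy. These intervals cover counting error only. Ifit1 was called lower in all 6 alternative fits that included it, with log2 changes of -5.80 with DESeq2 and -5.35 with edgeR and no filter, and Ifit3 in neither of those 2, the fits that included it. Ifit2 is placed at 34550550 to 34576534 and Ifit1 at 34640889 to 34650009 in the annotation of chromosome 19.

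**Figure D2:**
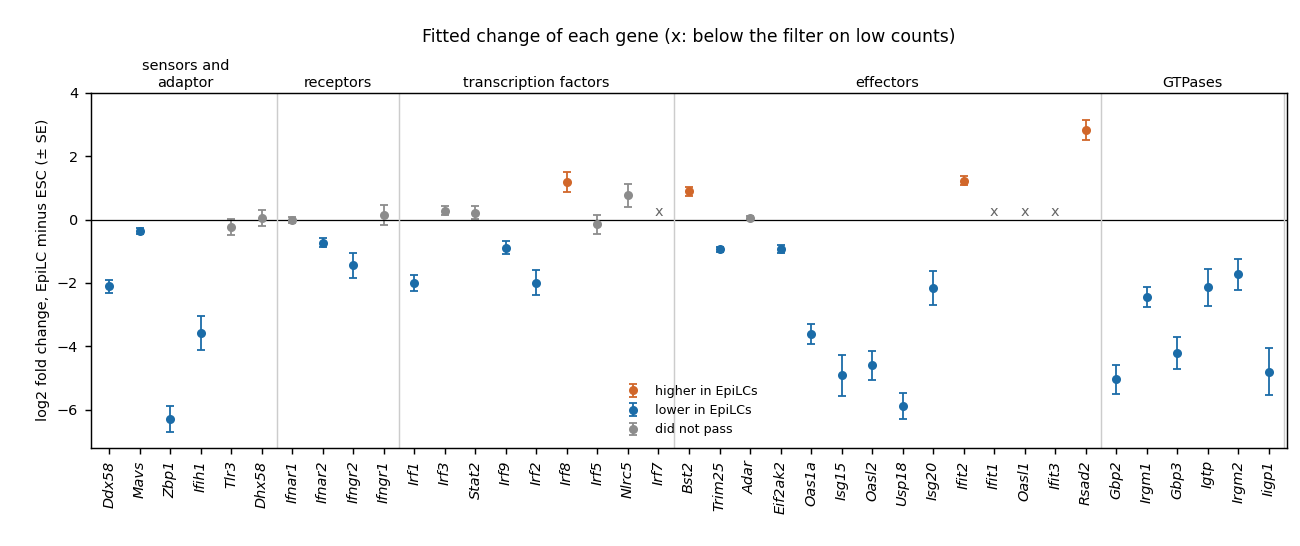
Fitted log2 fold change, EpiLC minus ESC (vertical axis), with its SE for the 35 tested genes, in the same order as the levels; blue marks genes called lower, orange higher, grey those that did not pass, and x the 4 genes below the filter. Falls reach -6.30 (Zbp1) and rises 2.82 (Rsad2), and all 6 GTPases lie below 0.

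The interferon-inducible GTPases, which attack the membranes around intracellular pathogens, were the most uniform role: 6 of 6 fell, with a median log2 change of -3.33. Their summed level was 159, 96.96 and 69.1 TPM in ESC replicates 1, 2 and 3 and 7.59, 8.47 and 14.5 TPM in the EpiLC replicates. Gbp2, the most abundant of them in ESCs, had 95, 52.9 and 35.02 TPM in ESCs and 1.61, 1.43 and 2.71 TPM in EpiLCs, a log2 change of -5.04 ± 0.46. Gbp3 had 15.2, 12.5 and 6.23 TPM in ESCs and 0.52, 0.32 and 1.06 TPM in EpiLCs, a log2 change of -4.21 ± 0.51. Gbp2 (142620663 to 142638008) and Gbp3 (142560016 to 142573213) lie in 1 cluster on chromosome 3, and in both the ESC order was replicate 1, then 2, then 3.

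Of the immunity-related GTPases, Irgm1, Igtp and Irgm2 kept more than 1 TPM in every EpiLC library, and Iigp1 did not. Irgm1 had 24.5, 23.8 and 14.8 TPM in ESCs and 2.47, 4.05 and 5.15 TPM in EpiLCs, a log2 change of -2.45 ± 0.31. Igtp (Irgm3) had 13.3, 3.4 and 7.21 TPM in ESCs and 1.29, 1.25 and 3.1 TPM in EpiLCs, a log2 change of -2.14 ± 0.58. Its neighbour Irgm2 had 9.69, 2.59 and 5.31 TPM in ESCs and 1.62, 1.38 and 2.49 TPM in EpiLCs, a log2 change of -1.73 ± 0.48. Igtp and Irgm2 thus shared the order of the ESC libraries, replicate 1, then 3, then 2. Both lost their call without ESC replicate 1 (-1.59 and -1.19), EpiLC replicate 1 (-1.92 and -1.64) or EpiLC replicate 2 (-1.90 and -1.55). Iigp1 had 1.43, 1.7 and 0.56 TPM in ESCs and 0.08, 0.04 and 0 TPM in EpiLCs, which was 109 reads against 6 and a log2 change of -4.80 ± 0.74 (-5.65 without EpiLC replicate 1). The reads of Gbp2, Gbp3, Igtp and Irgm2 were partly shared with near copies by the authors' counting, so that the split of reads within these families is uncertain.

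How the genes varied among replicates of 1 group is a measure that the choice of the genes did not use, and it was read in CPM scaled by TMM, edgeR's normalization. Of the 22 fallen genes, 14 (63.6%) were highest in ESC replicate 1, against 19.6% of all genes that fell, and 2 were highest in ESC replicate 3. Of the other interferon-stimulated genes that fell, 26 of 51 were highest in ESC replicate 1 and 28 of 51 in EpiLC replicate 3. Of the 17 tested fibroblast markers, 16 were highest in ESC replicate 2, in the order replicate 2, then 1, then 3, and all 8 naive markers were highest in ESC replicate 3. The order of the fibroblast markers was found in 4 of the 22 fallen genes (18.2%) and in 24.5% of all genes that fell, shares that are near each other and whose difference was not tested. ESC replicate 1 also held the most RNA of the 2-cell-like markers, 29.2 TPM in sum against 18.8 and 9.48 TPM. In EpiLCs, 13 of the 22 fallen genes (59.1%) were highest in replicate 3, against 37.1% of all genes that fell, and the summed naive markers were 69.1 TPM there against 49.6 and 50.3 TPM, with 4 of the 8 markers highest in that library. Cause and meaning of these library orders were not tested, and with 3 libraries per group they are a description of these libraries.

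**Figure D3:**
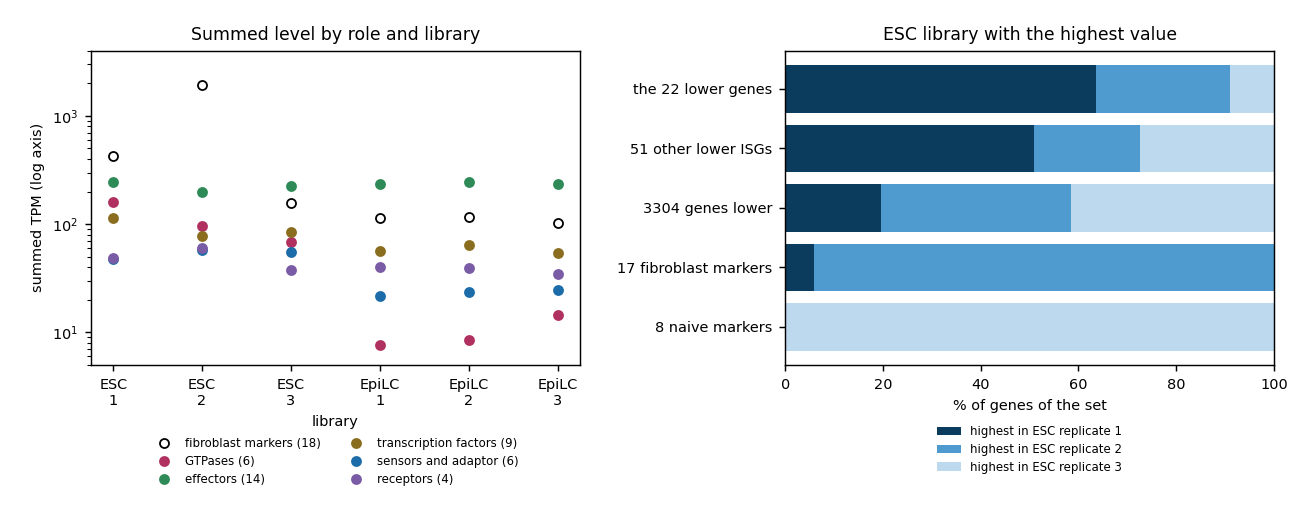
Left, summed TPM of the 5 roles and of the fibroblast markers (vertical log axis) in each of the 6 libraries. Right, share of each gene set (horizontal axis, %) whose highest ESC value lay in replicate 1, 2 or 3; ISGs are interferon-stimulated genes. The fibroblast markers peak in ESC replicate 2 (1920 TPM), whereas the GTPases sum to 159 TPM in ESC replicate 1 and to 69.1 TPM in replicate 3, and 63.6% of the 22 lower genes peak in ESC replicate 1.

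Interferons themselves were all but absent from both groups. Of 21 ligand genes, 19 had no read in any library, and the 2 others, Ifnz and Ifng, were at or below 0.21 TPM. None could be tested. The other genes of the pathway were thus measured in cultures with next to no interferon transcript at the sampled time points.

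Of the 10 JAK and STAT relay genes, 5 fell (50%) and none rose, against 22.8% and 22.6% of all tested genes. Stat3, which carries the LIF signal, fell by 2.29 ± 0.21 on the log2 scale (edgeR, adjusted p = 0.000341) and Stat5a by 1.92 ± 0.24 (edgeR, adjusted p = 0.00114).

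Of the brakes on the response, 25 genes, 10 fell (40%) and 5 rose (20%), against 22.8% and 22.6% of all tested genes. Socs3, an inhibitor of cytokine receptors and a known target of Stat3, had 42.3, 32.7 and 50.9 TPM in ESCs and 3.07, 2.27 and 2.13 TPM in EpiLCs, a log2 change of -4.13 ± 0.23 (edgeR, adjusted p = 8.2e-05). Ifi35 (-2.77 ± 0.27) and the ubiquitin ligase gene Rnf125 (-1.76 ± 0.18) followed. The largest rises were Samhd1, a nuclease of DNA precursors (0.69 ± 0.06), Rnaseh2c, a subunit of RNase H2 (0.47 ± 0.10), and the phosphatase gene Ptpn1 (0.36 ± 0.08). Another subunit gene, Rnaseh2a, named after its values were seen, fell (-0.36 ± 0.08).

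The genes that relay signals from nucleic acid sensors, 37 tested, had 7 lower (18.9%) and 6 higher (16.2%), below the 22.8% and 22.6% of all tested genes. By the fixed rule the named falls were the RNA-binding protein gene Zc3hav1 (ZAP), with a log2 change of -2.44 ± 0.15, the kinase gene Ikbke (-1.74 ± 0.48) and the DNA sensor gene Aim2 (-0.92 ± 0.13). The named rises were the necroptosis executor Mlkl (1.51 ± 0.47), Zcchc3 (1.07 ± 0.10) and Prkra (0.99 ± 0.11), both of which encode helpers of RNA sensing. Mlkl thus rose while Zbp1, which acts upstream in that pathway, fell, with Mlkl at 1.27, 3.11 and 0.78 TPM in ESCs and 4.62, 5.82 and 4.45 TPM in EpiLCs. The kinase gene Tbk1, which phosphorylates Irf3, was also among the 6 that rose, at 26.6 to 29.1 TPM in ESCs and 37.4 to 37.7 TPM in EpiLCs; Tbk1 was named after its values were seen.

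A list of 108 other interferon-stimulated genes, none of them among the 39, had 51 lower (68.9%) and 7 higher (9.46%) of 74 tested. The median log2 change of the list was -1.26. Over all tested genes, 22.8% were lower and 22.6% higher, with a median of -0.0017. The GTPase gene Tgtp1 fell furthest of the named, from 3.17, 2.76 and 2.65 TPM to 0.04, 0.07 and 0 TPM, a log2 change of -6.16 ± 0.52 (edgeR, adjusted p = 0.000248). Ifi27 had 5.57, 10.1 and 2.56 TPM in ESCs and 0, 0.37 and 0.1 TPM in EpiLCs, and the chemokine gene Cxcl11 had 1.97, 8.47 and 1.42 TPM in ESCs and 0.16, 0 and 0.22 TPM in EpiLCs. These 2 were highest in the ESC library with the most fibroblast marker RNA, and Tgtp1 was not. The named rises were Tor3a (1.31 ± 0.14) and Parp11 (0.70 ± 0.15). The lists beside the 39 genes were drawn up with earlier results of these data known, so their counts are descriptions too.

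**Figure D4:**
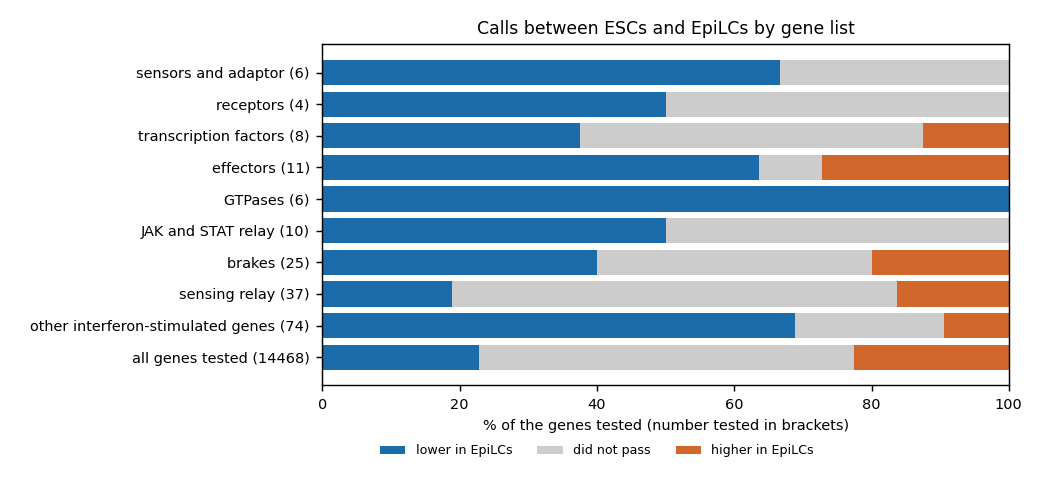
Share of the tested genes of each list (horizontal axis, %; the number tested in brackets) that was called lower (blue), not called (grey) or called higher (orange) in EpiLCs. The GTPases are all lower, the other interferon-stimulated genes have 51 of 74 lower, and the sensing relay has 7 of 37 lower and 6 of 37 higher.

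Of the 34 genes with a promoter window, 16 (47.1%) held an ISRE core in at least 1 window. The share was 3.99% of the 27025 genes of the promoter table and 3.43% of the tested genes that had a window. The 34 genes had 43 windows, and here a gene counted once, as 1 promoter, with a match in any of its windows. The GAS core was found in 13 (38.2%), against 9.55% of the table. By role, the ISRE core stood in 5 of 5 GTPase promoters, 7 of 13 effector promoters, 2 of 8 transcription factor promoters, 2 of 4 sensor and adaptor promoters and 0 of 4 receptor promoters. By call, it stood in 11 of 19 promoters of fallen genes, 2 of 4 of risen genes and 1 of 7 of genes that did not pass. In the 250 bases before the start alone, 13 of the 34 promoters held it, with 0 of 4 for the sensors and adaptor, 6 of 13 for the effectors and 8 of 19 for the fallen genes, against 3.46% of the table. A match is a description of letters and no evidence of binding. Of the 79 other interferon-stimulated genes with a window, 38 (48.1%) held the ISRE core and 9 (11.4%) the GAS core.
Within the promoters printed above, the first core began 78 bases before the start in Isg15, 59 in Gbp2, 34 in Igtp, 64 in Irgm2, 120 in Rsad2 and 130 in Bst2. Both directions of change were thus found among genes with an ISRE core near the start, and these letters were not in the window of Ifit2, which rose. No windows were on hand for Usp18, Dhx58, Zbp1, Iigp1 and Nlrc5.

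More of the genes were near silence in EpiLCs than in ESCs. In ESCs, 16 of the 39 genes had a mean of at least 10 TPM, 16 had 1 to 10 TPM and 7 were below 1 TPM. In EpiLCs these numbers were 8, 15 and 16. The 8 genes that kept at least 10 TPM in EpiLCs were Bst2, Trim25, Adar, Irf3, Ifnar1, Stat2, Mavs and Irf1, among which Bst2 rose and Trim25, Mavs and Irf1 fell.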

How the data were processed

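Polyadenylated RNA from 3 ESC and 3 EpiLC cultures was sequenced by the authors as 76-base single-end, strand-specific reads (KAPA mRNA HyperPrep). Per the labels and the study's methods, the authors trimmed reads with cutadapt 1.16, aligned them with STAR 2.5.2a to mm10 and estimated RefSeq gene levels with RSEM 1.3.0. RSEM divides reads between genes that share sequence, so that 6 of the 39 genes had fractional values and are uncertain. The deposited table holds expected counts (estimated reads per gene, unscaled) and TPM (scaled by the authors for transcript length and library size).

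Expected counts were rounded and tested with edgeR 4.0.16 (TMM normalization, filterByExpr, quasi-likelihood test) in R 4.3.3, with Benjamini-Hochberg adjustment over 14468 genes at a threshold of 0.05. The SE is the log2 fold change divided by the root of its F statistic. p-values measure the spread between 3 cultures per group. The alternatives were DESeq2 1.42.0 (the submitters' processing notes name version 1.16.1), upper-quartile scaling, 2 other filters, a replicate block, limma 3.58.1 on TPM with a pseudocount of 1 or 0.1 before the log2, and leaving out each library. The test was checked on simulated data. Gene positions and promoters came from RefSeq, GRCm38.p6, where all 39 symbols matched.

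The 39 genes and the other lists were chosen with earlier results of these data known. All 39 are named; of the other pathway lists, the 3 called genes with the largest rise and the 3 with the largest fall among those with a mean of at least 1 TPM. Some genes that this rule names are not reported here. Other names are marked as chosen after their values were seen. Levels were compared between genes in TPM only. Mnda, Herc5 and Rnf213 of the other interferon-stimulated genes and Duxf3 of the 2-cell-like markers matched no row of the table.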

Additional observations from a re-analysis of the deposited data

How the results depend on the processing

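Of the 35 tested genes, 23 kept their direction and their side of the threshold under all 13 alternatives that gave them a value. Over 447 gene and alternative pairs, 420 did so, 15 lost a call, 2 gained one and 10 changed sign, all 10 in genes that were not called. The sign changes were those of Ifnar1, Ifngr1, Dhx58 and Irf5. Ifnar1 was at 0.0072 with upper-quartile scaling and at 0.035 and 0.037 with limma and a pseudocount of 1 or 0.1. With a library left out, the log2 changes ranged from -0.115 to 0.035 for Ifnar1, from -0.070 to 0.39 for Ifngr1 (without ESC replicate 3 and without EpiLC replicate 3), from -0.057 to 0.211 for Dhx58 and from -0.337 to 0.0092 for Irf5. The lost calls concerned Ifngr2, Igtp, Irf8, Irgm2, Isg20 and Mavs, each only when a library was left out.

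With libraries left out in turn, 18 to 24 of the 39 genes were lower and 3 to 5 higher, and 14 to 19 and 2 to 4 with a change beyond 1. Their median ranged from -1.71 to -0.85. It was -1.45 with DESeq2 and -1.43 with no filter, which both added the 4 genes below the filter. Both called 23 genes lower, with Ifit1 the added one. With at least 10 counts in every library the median was -0.72 over 27 genes, of which 15 were lower and 3 higher. That filter removed the risen gene Rsad2 and the fallen genes Zbp1, Ifih1, Isg15, Isg20, Oasl2, Usp18 and Iigp1. Each of these fallen genes had fewer than 10 counts in at least 1 EpiLC library. With limma and a pseudocount of 1, which shrinks low values (Zbp1 to -2.68, Rsad2 to 0.93), the median was -0.87. The stricter filter left 10 genes lower beyond 1, and limma with a pseudocount of 1 left 1 gene higher beyond 1. Over all alternatives, 38 to 59 of the other interferon-stimulated genes were lower and 5 to 9 higher. Over all genes, leaving out 1 library gave 2144 to 3572 higher and 2100 to 3609 lower, with both lowest values without EpiLC replicate 1.

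Same-numbered libraries deviated from their group means with correlations across genes of 0.0067, 0.186 and 0.17, not all above 0.1, so the numbers were not taken as pairs. With the replicate block, 4 genes were higher and 22 lower, the same calls for all 35 genes, with a median of -0.94, and over all genes 2979 were higher and 3106 lower. Irf7, Ifit1, Ifit3 and Oasl1, which were below the filter on low counts, are limited by depth.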

Other observations

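The neighbours of 4 genes of the set, taken within 60 kb on either side, were examined after the values of those 4 had been seen. Around Bst2 on chromosome 8, 7 of 9 neighbours could be tested, of which 4 were higher and none lower in EpiLCs: Ano8 (0.99 ± 0.12), Mvb12a (0.58 ± 0.13), Pgls (0.49 ± 0.10) and Gtpbp3 (0.39 ± 0.08 on the log2 scale). Beside Rsad2 on chromosome 12, Cmpk2, an interferon-stimulated gene, had a log2 change of 0.03 ± 0.32 and was not called, at 1.03, 1.54 and 0.77 TPM in ESCs and 0.92, 1.39 and 1.18 TPM in EpiLCs, whereas Rnf144a on the other side was higher (1.08 ± 0.28). Around Ifit2 on chromosome 19, the copies Ifit3b, Ifit1bl1 and Ifit1bl2 did not exceed 0.18 TPM in any library, and Lipa was not called (-0.34 ± 0.19). Beside Gbp2 on chromosome 3, the near copy Gbp2b had 68.4, 41.5 and 26.7 TPM in ESCs and 1.81, 1.2 and 1.51 TPM in EpiLCs, a log2 change of -4.96 ± 0.39, in the same order over the ESC libraries as Gbp2. The share of reads that Gbp2 and Gbp2b exchanged in the authors' counting was not tested.

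Of the primitive endoderm markers, 6 of 9 were lower in EpiLCs, and the list summed to 132, 152 and 82.2 TPM in the ESC libraries and to 40.9 to 54.0 TPM in the EpiLC libraries. All 5 tested 2-cell-like markers were lower. Of the 9 primitive endoderm markers, 4 were highest in ESC replicate 1 and 4 in ESC replicate 2. The part of either list in the values of the interferon genes was not tested.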
